A study of Mus musculus with 16 samples.

Results

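Housing at 22 °C was compared with housing at 30 °C in the interscapular brown fat of wild-type (WT) mice, using every gene that passed a filter on low counts. The comparison took the 8 WT libraries, 4 at each temperature, out of 16 libraries of bulk RNA sequencing, and 14103 of the 38924 genes in the count table passed. The series set out to follow how brown fat adapts to ambient temperature with and without the kinase AKT2. Its other 8 libraries came from mice that lacked Akt2 in brown fat, deleted by a Cre recombinase driven from the Ucp1 promoter (UCP1-CreER). All mice were C57BL/6J, entered their temperature at 9 weeks of age and were 13 weeks old when sampled, after 4 weeks. The WT mice were littermates of the knockouts, and whether they carried the Cre transgene or were given an inducer is not given in the sources used here. The labels number the libraries within a group and do not say that each came from a separate animal, so the p-values describe sample-to-sample spread alone, which may be technical.

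Brown fat burns fuel to make heat. Noradrenaline from sympathetic nerves acts on beta-adrenergic receptors, cyclic AMP rises, and stored triglyceride is broken down. The fatty acids feed the mitochondria and open uncoupling protein 1, which lets protons return to the matrix without ATP synthesis. A temperature of 30 °C is close to thermoneutral for a mouse, so the tissue is little used there, while ordinary room temperature is a steady cold load under which brown fat is known to make fatty acids from glucose while it burns them.

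Library totals ran from 15303069 to 16022550 counts at 30 °C and from 14563657 to 23866743 counts at 22 °C. Levels are counts per 1000000 counts of a library (CPM), with totals scaled by trimmed-mean factors, and 4 values in a row are replicates 1 to 4 of a group. Log2 fold changes are 22 °C minus 30 °C with their standard error (SE) from edgeR's quasi-likelihood test. A gene was called higher or lower at a Benjamini-Hochberg adjusted p under 0.05 over all 14103 genes. The first principal component of the 8 libraries held 49.99% of the variance and separated the temperatures, and the second held 14.3%, with 22 °C replicate 2 at its low end. The 10 brown adipocyte markers took 0.395% to 0.402% of counts in the libraries at 30 °C and 0.605% to 1.15% at 22 °C. They include Ucp1 and Elovl3, whose own rises are given below, and 5 of the 10 were called higher and 1 lower. Counts on 14 skeletal muscle markers were 0.251% in 30 °C replicate 2, 0.0869% in 30 °C replicate 4 and at most 0.0292% in the other 6 libraries, and none of these markers was called.

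Between the temperatures 5385 genes differed, or 38.2% of those tested. Of these, 2881 (20.4% of all tested) were higher and 2504 (17.8%) were lower at 22 °C, and the log2 fold change had a median of -0.03 over all genes. A log2 change of at least 1 was reached by 477 of the higher and 721 of the lower genes, and one of at least 3 by 36 and 24. In 4418 of the called genes the 4 libraries of one temperature did not overlap the 4 of the other, and over all genes tested 35.3% did not overlap. Under upper-quartile scaling, where the all-gene median was -0.13, 39.3% of the calls were higher (2187 higher and 3372 lower) in place of 53.5%. The counts given for each gene group below are read against these shares.

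**Figure D1:**
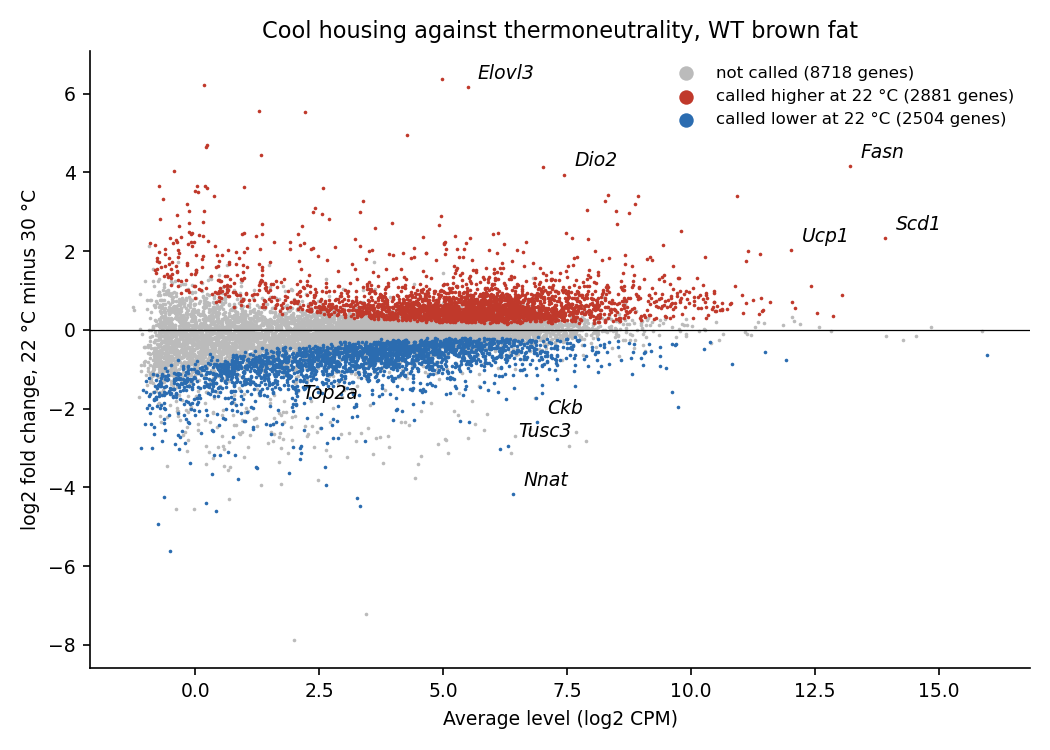
Mean level (average log2 CPM over the libraries of the fit, x axis) against the log2 fold change at 22 °C relative to 30 °C (y axis) for the 14103 genes tested in WT brown fat, with genes called higher in red, called lower in blue and not called in grey. The labelled genes include Elovl3 (6.17) and Fasn (4.16), higher at 22 °C, and Nnat (-4.17), lower, and 5385 genes are coloured.

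Within the limits of level and overlap set by the naming rule, the largest increase was that of Elovl3, which encodes an elongase of saturated fatty acids that marks cold-exposed brown fat. Its level was 1.19, 1.49, 2.42 and 0.968 CPM at 30 °C and 216, 137, 44.2 and 44.3 CPM at 22 °C. All 4 libraries at 30 °C were far below the lowest at 22 °C, and at 22 °C replicates 1 and 2 were above replicates 3 and 4. The log2 fold change was 6.17 (SE 0.685, edgeR adjusted p = 2.09e-05). Slc2a5, the fructose transporter, followed with 0.416, 2.46, 5.41 and 0.544 CPM at 30 °C and 98.5, 49.4, 35.3 and 91.5 CPM at 22 °C. Its log2 fold change was 4.95, and 5.89 without 30 °C replicate 3, the library with most of its low signal. Aspg, an asparaginase, went from 13.8 to 19.5 CPM to 176 to 379 CPM (log2 fold change 4.14, SE 0.306), and Rims4, which is better known from nerve terminals, from 0.907 to 2.42 CPM to 16.2 to 19.9 CPM (3.62).

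At the other end stood Nnat, an imprinted gene whose protein sits in the endoplasmic reticulum. It was at 277, 214, 167 and 182 CPM at 30 °C and at 3.05, 23.9, 14.5 and 5.81 CPM at 22 °C. Every 22 °C library was below every 30 °C library, but the low values ranged widely, and the log2 fold change of -4.17 (SE 0.650, edgeR adjusted p = 2.98e-04) became -4.77 without 22 °C replicate 2. Tusc3, a subunit of the oligosaccharyltransferase that attaches sugars to new proteins, had the smallest SE among the largest decreases. It fell from 105, 115, 128 and 160.5 CPM to 15.4, 16.8, 14.7 and 19.4 CPM (-2.94, SE 0.151, edgeR adjusted p = 2.47e-09), with no overlap. Spag5, a mitotic spindle gene (-2.99), Nrxn2, a neurexin (-2.75), and Nt5dc2 (-2.50) were also among the 10 largest decreases.

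Genes of the thermogenic programme rose. Of 25 tested members of the thermogenic list 14 were higher and 2 lower, with a median log2 fold change of 0.75. Ucp1 (ENSMUSG00000031710, chromosome 8, 83290352 to 83298452, plus strand, GRCm38) was at 1412, 1473, 1569.6 and 1616 CPM at 30 °C and at 8719, 7831, 4399 and 3764 CPM at 22 °C. The 30 °C libraries lay within a narrow band, the 22 °C libraries were all above it, and replicates 1 and 2 were above replicates 3 and 4. The log2 fold change was 2.03 (SE 0.259, edgeR adjusted p = 3.19e-05). Per length, Ucp1 ranked 3 among nuclear genes at 22 °C, at 8221 ± 3007 transcripts per 1000000 (TPM, SD, n = 4), against 2283 ± 132 at 30 °C. In whole tissue, a change in RNA per cell and a change in the number of cells of a type cannot be told apart, here and in every comparison below.

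Dio2 encodes the deiodinase that turns thyroxine into active thyroid hormone inside brown adipocytes, and its promoter is a textbook target of cyclic AMP signalling. Its level went from 24.8, 5.04, 12.1 and 11.97 CPM to 353, 204, 93.9 and 181 CPM, again without overlap, and the log2 fold change was 3.94 (SE 0.471, edgeR adjusted p = 3.31e-05). The 150 bases before its RefSeq start (chr12:90739039-90739188, minus strand, GRCm38.p6) are shown because they hold a full cyclic AMP response element, TGACGTCA, in capitals, from 95 to 88 bases before the start.
Dio2: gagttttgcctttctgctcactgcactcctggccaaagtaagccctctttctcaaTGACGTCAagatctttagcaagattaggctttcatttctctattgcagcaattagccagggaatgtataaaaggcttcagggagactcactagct
That motif, on either strand, was in 1.79% of all 32851 promoters of 300 bases in the table, in 2.86% of the promoters of tested genes, in 3.66% of those of genes called higher, in 1.78% of those of genes called lower and in 2.91% of those of genes not called. Of the 26 promoters in the table that belong to the thermogenic list, that of Dio2 was the 1 that held it. For the others this says that these letters are not in those windows.

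Irf4, a transcription factor of the thermogenic response, rose from 11.3 to 15.4 CPM to 38.6 to 67.4 CPM (log2 fold change 2.05, SE 0.237), and Ppargc1a, the coactivator of mitochondrial gene expression, from 34.9, 29.5, 33.5 and 33.7 CPM to 101.0, 79.6, 58.5 and 84.1 CPM (1.30, SE 0.234). Both genes were higher in every 22 °C library than in every 30 °C library. Otop1, which encodes a proton channel, rose by 1.50, Letmd1 by 1.29 and Acot11, an acyl-CoA thioesterase also known as a brown fat-inducible gene, by 3.04 on the log2 scale. Kcnk3, a potassium channel of the brown adipocyte membrane, was at 754, 569, 518 and 522 CPM at 22 °C against 472 to 493 CPM at 30 °C, and though the groups did not overlap it did not pass (0.30, edgeR adjusted p = 0.0791, and 0.0397 without knockout 22 °C replicate 1). The lower members, named outside the rule, were Lhx8 (-1.08) and Ppara (-0.71). Neither was called without 22 °C replicate 1, and 1 of them was not without 22 °C replicate 4 or without 30 °C replicate 1, 3 or 4.

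**Figure D2:**
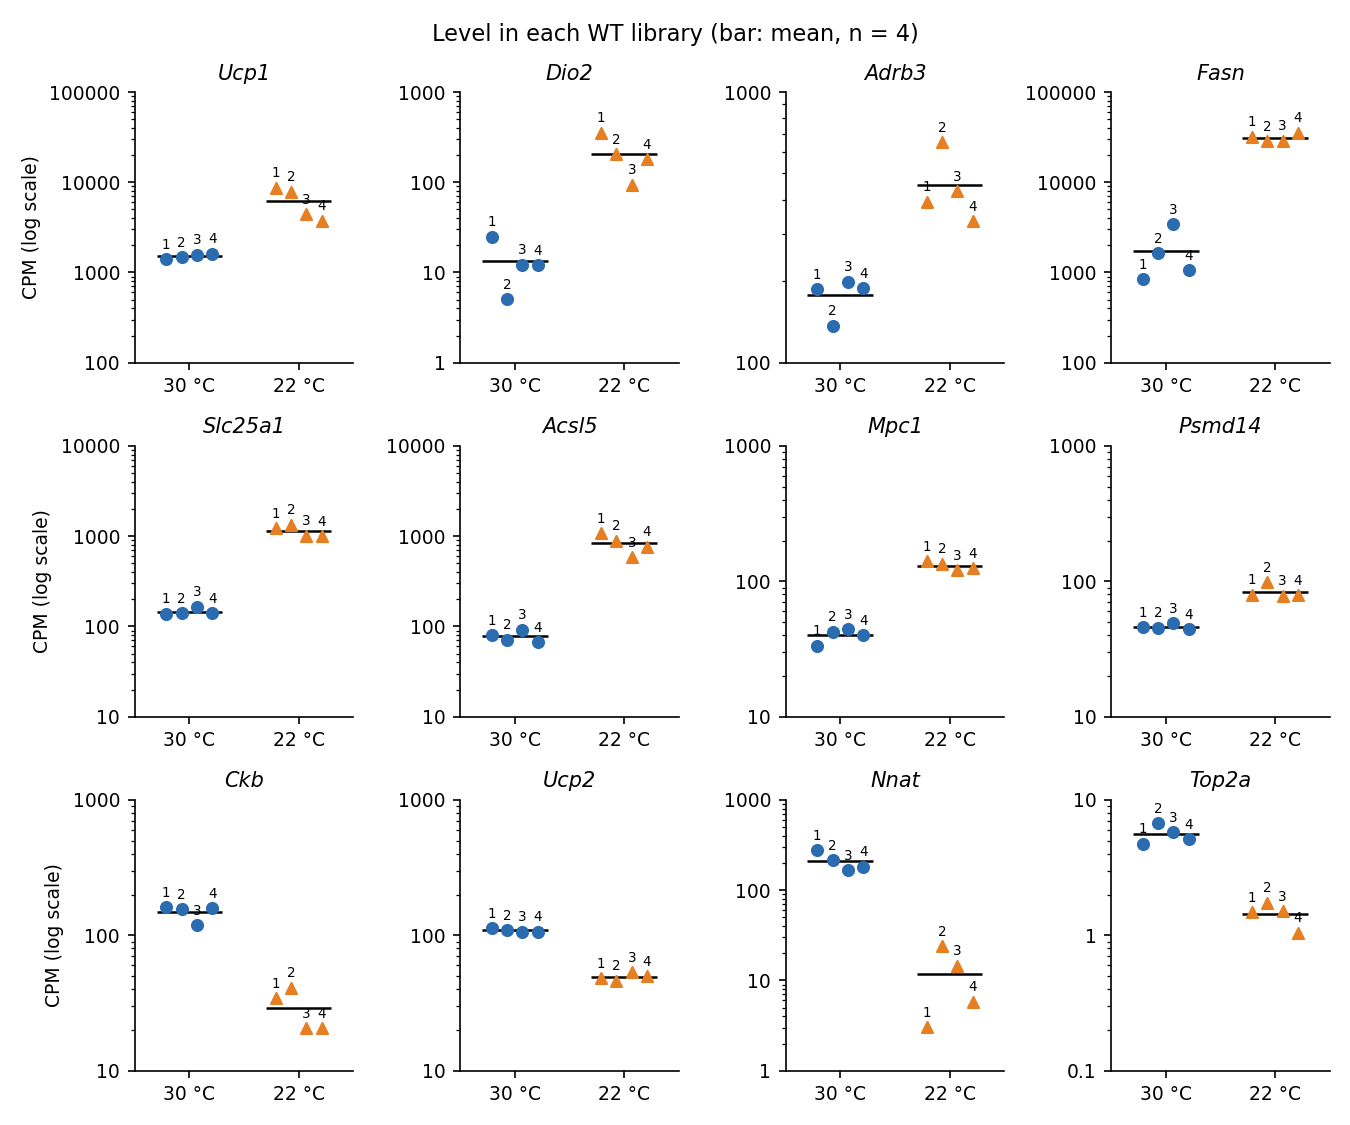
Level (CPM, log scale) of 12 genes in each WT library, with 30 °C libraries as blue circles and 22 °C libraries as orange triangles, replicate numbers beside the points and a bar at each group's mean. The groups do not overlap in any of the 12 genes: 8 are higher at 22 °C and Ckb, Ucp2, Nnat and Top2a are lower.

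Upstream of these genes stands the receptor and cyclic AMP machinery. Of its 27 tested members 7 were higher and 2 lower, with a median of 0.13, and under upper-quartile scaling 4 rose and 4 fell. Adrb3, the beta3-adrenergic receptor of adipocytes, was at 187, 137, 199 and 188 CPM at 30 °C and at 393, 652, 431 and 334 CPM at 22 °C. Replicate 2 was the highest at 22 °C and the lowest at 30 °C, and the groups did not overlap (log2 fold change 1.35, SE 0.216, edgeR adjusted p = 1.98e-04). Adcy3, an adenylyl cyclase that makes cyclic AMP, rose by 0.99, and Pde4d, a phosphodiesterase that degrades it, rose by 1.18, from 60.8 to 66.3 CPM to 122 to 163 CPM. Gnai2, an inhibitory G protein subunit, fell from 207 to 235 CPM to 141 to 192 CPM (-0.49). In the thyroid hormone list Thrsp, a hormone-responsive lipogenic gene, rose from 1080.3 to 1318 CPM to 4041 to 6465 CPM (2.01).

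In the pathway from the insulin receptor to AKT, FOXO and mTOR, 9 of 39 tested genes were higher and 7 lower, a share close to that of all genes, and the median was -0.09. Insr, the receptor, was slightly higher in every 22 °C library (99.5 to 143 CPM against 88.2 to 93.3 CPM, log2 fold change 0.39, SE 0.0964). Mtor, the kinase of the growth pathway, went from 98.2, 111, 114 and 105 CPM to 271, 182, 201 and 254 CPM (1.08, SE 0.107, edgeR adjusted p = 1.83e-06), and Foxo1, a transcription factor that AKT keeps out of the nucleus, from 82.3, 86.5, 87.8 and 79.6 CPM to 221, 159, 187 and 143 CPM (1.08, SE 0.153). In both genes every 22 °C library was above every 30 °C library. Sgk2, a kinase related to AKT, fell from 3.67 to 7.74 CPM to 0.523 to 1.97 CPM (-2.19), whereas Akt2 itself, at 196, 192, 221 and 205 CPM and 216, 261, 224 and 226 CPM, did not pass (0.19, edgeR adjusted p = 0.164).

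Genes of the fatty acid synthesis list rose. Besides synthesis enzymes the list holds the desaturase gene Scd1 and the factor gene Srebf1, both given below. All 15 genes of the list were called higher, with a median log2 fold change of 2.32, and together they took 1.16%, 1.40%, 2.57% and 1.15% of all counts in the 30 °C libraries and 7.67%, 7.39%, 7.99% and 10.7% in the 22 °C libraries (exact permutation test, two-sided, p = 0.0286, the smallest that 4 against 4 can give, adjusted p = 0.0457 over 16 shares). Scd1 alone went from a mean of 8399 CPM at 30 °C to 42072 CPM at 22 °C. In 9 of the 28 alternative settings 14 of the 15 genes were called higher. Fasn, which encodes fatty acid synthase, was at 839, 1628, 3414 and 1062 CPM and 31829, 28286, 28708 and 35529.6 CPM, a 17.9-fold increase of the mean CPM. At 30 °C replicate 3 had the highest level of Fasn, of Acly (909 CPM against 339 to 613 in the others) and of Acaca (217 against 101 to 157), while at 22 °C the highest library of all 3 genes was replicate 4. Acly, which splits citrate into acetyl-CoA in the cytosol, rose by 3.40 (SE 0.317), Acaca, acetyl-CoA carboxylase, by 3.19 (SE 0.192), and Acss2, the cytosolic acetyl-CoA synthetase, by 3.03 (SE 0.183).

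Mlxipl, which encodes the carbohydrate-responsive factor ChREBP, went from 374, 400.4, 431 and 362 CPM to 780.4, 533, 667 and 849 CPM (log2 fold change 0.85, SE 0.126, edgeR adjusted p = 6.88e-05) and its partner gene Mlx rose by 0.86. Nr1h3, the liver X receptor alpha, rose by 0.83. Srebf1, at 301, 239.8, 339 and 277 CPM and 311, 446, 540.3 and 449 CPM, overlapped between the groups, since 22 °C replicate 1 lay inside the 30 °C range (0.59, edgeR adjusted p = 0.0280), and its call was lost in 9 of the 28 alternative settings, among them without 22 °C replicate 2, 3 or 4 and without 30 °C replicate 2 or 4. Pparg (0.35, edgeR adjusted p = 0.0568) and Cebpa (0.10, 0.670) did not pass. Pparg did without 22 °C replicate 4 (0.45, edgeR adjusted p = 0.0177) and without knockout 30 °C replicate 3 (0.0486) or 4 (0.0278).

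Elongation and desaturation split by enzyme. Of 13 tested elongation genes 7 were higher and 2 lower. The higher ones covered each step of the elongation cycle: Elovl6, the condensing enzyme for medium and long saturated chains (3.40, SE 0.184), Hsd17b12, the ketoacyl-CoA reductase (1.84, SE 0.0915), Hacd2, a dehydratase (1.75), and Tecr, the enoyl-CoA reductase (0.95). Scd1, the delta-9 desaturase that makes monounsaturated fatty acids, was at 5600.4, 6925, 15178 and 5892 CPM at 30 °C and at 35788, 32738, 39078 and 60685 CPM at 22 °C, where it was the most abundant nuclear transcript per length (18983 ± 6082 TPM). Scd1 and its relative Scd2 rose by 2.32 and 2.32. Fads1 and Fads2, desaturases of polyunsaturated fatty acids, were lower. Fads1 fell from 28.8 to 39.2 CPM to 14.1 to 25.6 CPM (-0.82) and Fads2 from 10.9 to 11.1 CPM to 4.86 to 8.89 CPM (-0.70). Of the 9 tested desaturation genes 2 were higher and 4 lower, and 2 were lower without 22 °C replicate 3 or without 30 °C replicate 1 or 3.

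In cholesterol synthesis 20 of 27 tested genes were higher and 1 lower, with a median of 0.70. Nsdhl, Pmvk, Fdps and Lss had log2 fold changes of 2.19, 2.46, 1.94 and 1.57, and Nsdhl went from 14.7 to 20.6 CPM to 67.6 to 80.99 CPM. The lower call was lost when any single WT library other than 22 °C replicate 3 was left out, and with each of 6 knockout libraries left out (22 °C replicates 2, 3 and 4 and 30 °C replicates 1, 2 and 3). Srebf2 and Scap, which control the pathway, did not pass (-0.08, edgeR adjusted p = 0.623, and 0.11, 0.245).

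On the supply side, 14 of 26 tested glycolysis genes were higher and 3 lower (median 0.74), as were 6 of 8 in the pentose phosphate pathway (median 1.23). Slc2a4, the insulin-responsive glucose transporter GLUT4, rose from 431, 503, 537 and 440.3 CPM to 925, 745, 732 and 768 CPM (log2 fold change 0.73, SE 0.0999, edgeR adjusted p = 3.60e-05), and Slc2a1 (GLUT1) did not pass at 10.1 to 13.1 CPM and 8.66 to 12.4 CPM (-0.18, 0.741). Aldoa, an aldolase of glycolysis, was at 1203, 1352, 1352 and 1159 CPM at 30 °C and at 5194, 4816, 3462 and 3463 CPM at 22 °C (1.74). The NADPH-producing enzymes of the pentose phosphate pathway, G6pdx and Pgd, rose by 1.45 and 2.69, and the transketolase Tkt by 1.93. Gapdh (1.57) has many processed copies that can take its reads, so its value is uncertain.

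Of 17 tested genes of pyruvate entry into mitochondria 11 were higher and 1 lower, and none was lower without 22 °C replicate 1 or 2 or 30 °C replicate 2 or 4. Mpc1 and Mpc2, the subunits of the mitochondrial pyruvate carrier, rose by 1.71 (SE 0.0881) and 1.90 (SE 0.147). Mpc1 was at 33.3, 42.5, 44.2 and 39.97 CPM at 30 °C and at 141, 135, 121 and 125 CPM at 22 °C, with little spread in either group. The pyruvate dehydrogenase subunit gene Pdhb rose by 1.84, and Pdk4, the kinase that turns the complex off, did not pass at a high level (2396 to 2792 and 2504 to 2817 CPM, 0.09, edgeR adjusted p = 0.708). Of 20 tested TCA cycle genes 19 were higher, with a median of 0.57 and examples in Mdh1 (0.86) and Sdhd (0.93). The 1 that fell was Idh2, the mitochondrial NADP-dependent isocitrate dehydrogenase, which is named outside the rule (718 to 819 CPM to 418 to 559 CPM, -0.65), while its cytosolic counterpart Idh1 rose (0.81).

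Glycogen metabolism had 10 of 21 tested genes higher and 1 lower, and among them were genes of both synthesis and breakdown. Pygl, a glycogen phosphorylase, was at 303, 411, 406 and 312 CPM at 30 °C and at 1689, 1641, 1429 and 1589 CPM at 22 °C (log2 fold change 2.15, SE 0.124, edgeR adjusted p = 7.88e-09), and Gys2, a glycogen synthase, at 21.9, 26.4, 35.2 and 29.4 CPM and 157, 108, 85.1 and 87.9 CPM (1.95, SE 0.233). Neither gene overlapped between the temperatures. The branching enzyme Gbe1 rose by 1.18. The lower call numbered 2 without 22 °C replicate 4 or 30 °C replicate 1, 2 without knockout 22 °C replicate 4 and 3 without any other knockout 22 °C library.

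Triglyceride assembly and the lipid droplet rose in parts. In triglyceride synthesis and glycerol supply 11 of 20 tested genes were higher and 1 lower (median 0.52), and 2 were lower without knockout 22 °C replicate 1. Agpat2, which adds the second acyl chain to glycerol, was at 317, 257, 421 and 341 CPM at 30 °C and at 2071, 2513, 1320.3 and 1759 CPM at 22 °C (log2 fold change 2.52, SE 0.214, edgeR adjusted p = 5.79e-07). Gpd1, which makes glycerol-3-phosphate from a glycolytic intermediate, rose by 1.12, and Mogat1, an acyltransferase of monoacylglycerol, from 1.51 to 2.46 CPM to 8.83 to 19.4 CPM (2.83). Dgat2, which catalyses the last step, was high at both temperatures and did not pass (2182 to 2638 and 1933 to 3528 CPM, 0.20, edgeR adjusted p = 0.320).

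Among 18 tested genes of lipolysis and droplet proteins 10 were higher and 1 lower. None was lower without 30 °C replicate 3, 2 were without knockout 22 °C replicate 1, and 3 were in a fit of the 8 WT libraries alone. Plin2, a droplet coat protein, rose from 286, 222, 318 and 279.8 CPM to 954, 1064, 674 and 1134 CPM (1.79, SE 0.219), and Bscl2, which encodes seipin of droplet biogenesis, by 1.26. Of the lipases, Pnpla2, the triglyceride lipase that starts lipolysis, overlapped between the temperatures (3457 to 3921 and 3449.8 to 4721 CPM, 0.12, edgeR adjusted p = 0.338), while Lipe, the hormone-sensitive lipase, rose by 0.52 and Mgll, the monoglyceride lipase, by 0.80.

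Uptake of lipid from the blood had 7 of 18 tested genes higher and 6 lower. Lpl, the lipoprotein lipase, was at 3561, 2900.4, 2898 and 3238 CPM and 4419, 3527, 3766 and 3072 CPM and did not pass (0.23, edgeR adjusted p = 0.166), and Cd36, the fatty acid translocase, did not pass either (-0.11, 0.275). Apoc1, an apolipoprotein, rose from 166 to 241 CPM to 395 to 734 CPM (1.45). Fabp4, the abundant fatty acid binding protein, rose by 0.88, and Lrp1, a receptor for lipoprotein remnants, fell from 415 to 459 CPM to 195 to 310.2 CPM (-0.87, SE 0.130).

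Genes of fatty acid breakdown were higher too. In mitochondrial fatty acid oxidation 18 of 22 tested genes were higher and 1 lower (median 0.68), in the peroxisome list 20 of 30 were higher and none lower (median 0.57), and in the list of acyl-CoA synthetases and thioesterases 11 of 18 were higher and none lower (median 0.69). Cpt2, which hands long acyl chains to the matrix, was at 279, 267, 284 and 275 CPM at 30 °C and at 790.2, 885, 645 and 587 CPM at 22 °C (log2 fold change 1.39, SE 0.128, edgeR adjusted p = 8.50e-07). Acsl5, an acyl-CoA synthetase, showed one of the 10 largest increases, from 80.2, 70.9, 91.9 and 67.1 CPM to 1087, 894, 584 and 765 CPM (3.42, SE 0.227). Both genes were well apart between the temperatures. Hadha, of the trifunctional protein, rose by 1.12, and the peroxisomal transporter gene Abcd3 by 1.10. In branched-chain amino acid breakdown 17 of 22 were higher and 1 lower (median 0.52), with Mccc1, a carboxylase of leucine breakdown, at 1.15. The lower gene of mitochondrial oxidation did not pass without replicate 1, 2 or 3 of either temperature, and that in branched-chain amino acids did not pass without 22 °C replicate 1, 2 or 4 or 30 °C replicate 1, 3 or 4.

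**Figure D3:**
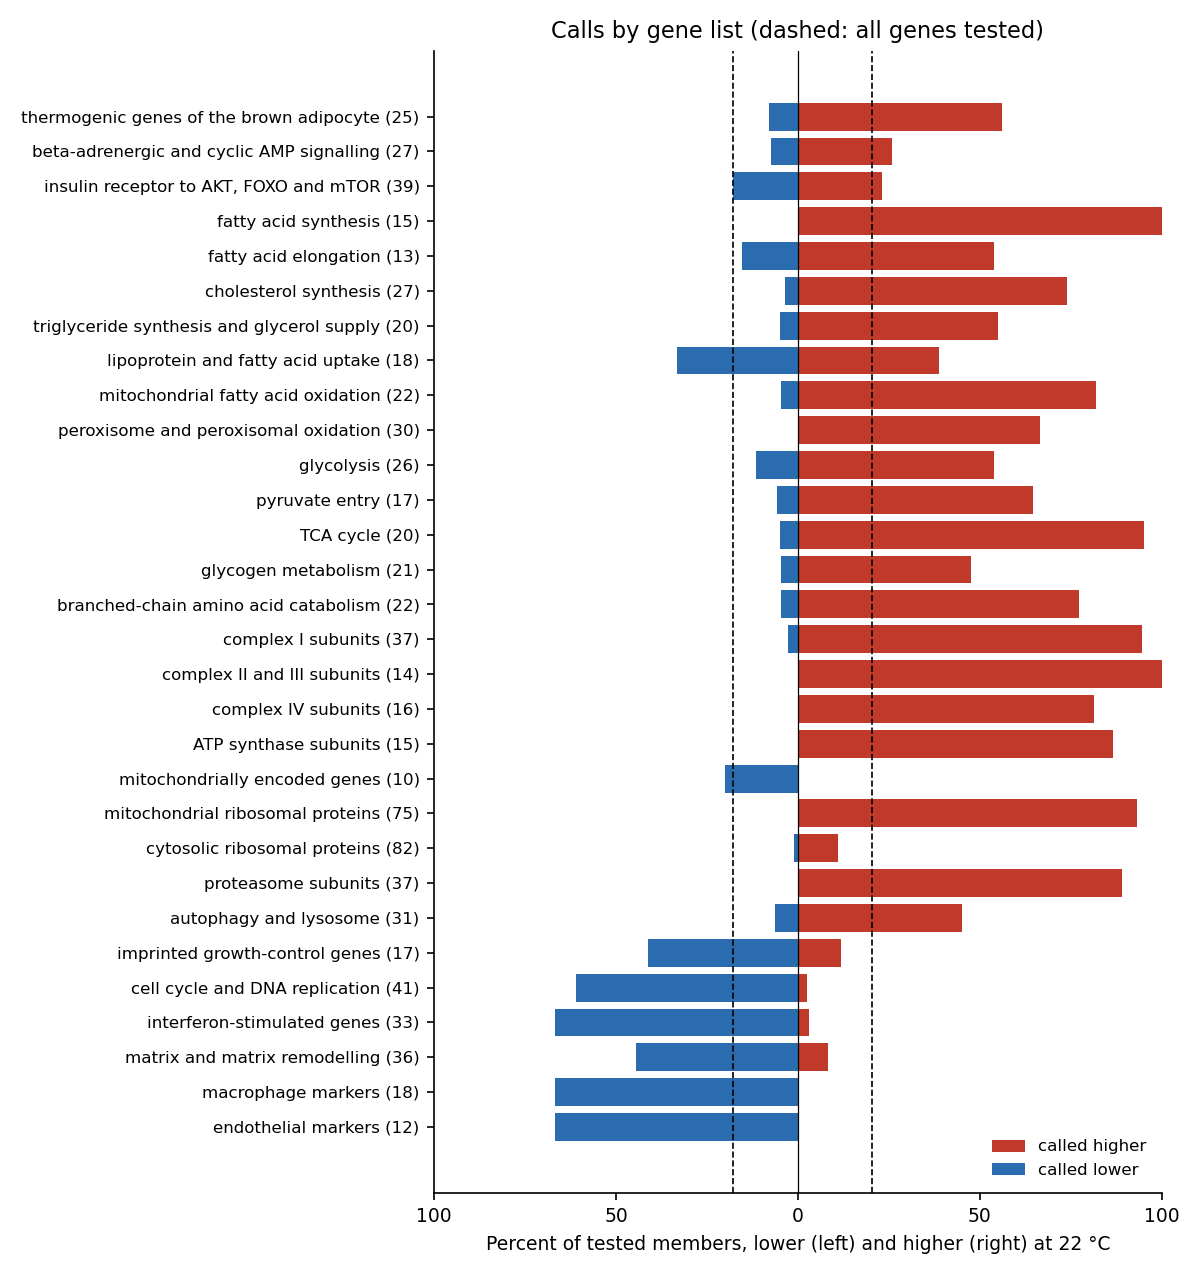
Percent of the tested members of 30 gene lists that were called higher (red, to the right) and lower (blue, to the left) at 22 °C in WT brown fat, with the number of tested members after each name and dashed lines at the shares over all 14103 genes (20.4% higher and 17.8% lower). The lists of respiratory chain subunits and mitochondrial ribosomal proteins reach far to the right of the line, and the cell cycle, interferon and macrophage lists reach far to the left.

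Most nuclear genes for subunits of the respiratory chain and ATP synthase were higher. Of the subunits, 35 of 37 tested were higher in complex I (1 lower), 14 of 14 in complexes II and III, 13 of 16 in complex IV and 13 of 15 in the ATP synthase. The change per gene was modest, with list medians between 0.68 and 0.81. Ndufv2, of complex I, was at 417, 422, 412 and 409.6 CPM and 881, 1125, 773 and 708 CPM (log2 fold change 1.07, SE 0.112, edgeR adjusted p = 2.89e-06), with replicate 2 the highest at 22 °C. Uqcrfs1, the iron-sulfur subunit of complex III, rose by 1.08 and Cox6a1, of complex IV, by 1.15. In Cox6a1 too, replicate 2 was the highest 22 °C library (1724, 2759.8, 1704 and 1535 CPM). Complex IV and the ATP synthase had no member lower, and 1 each was lower without 22 °C replicate 2. The 1 lower call of complex I was lost when any single WT library other than 22 °C replicate 2 was left out, and with each of 6 knockout libraries left out (22 °C replicates 2, 3 and 4 and 30 °C replicates 1, 2 and 4).

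Genes encoded in the mitochondrial genome were not called higher. Of the 15 on the list, mt-Nd4l, mt-Co2, mt-Co3, mt-Atp6 and mt-Atp8 did not pass the count filter. Among the 10 tested, 2 were lower, and log2 fold changes ran from -2.97 to 0.33. The list took 24.0%, 25.2%, 23.6% and 26.5% of all counts at 30 °C and 19.5%, 12.8%, 18.8% and 19.4% at 22 °C (exact permutation test, two-sided, p = 0.0286, adjusted p = 0.0457 over 16 shares). Every 22 °C library was below every 30 °C library, and 22 °C replicate 2, the library at the end of the second principal component, was the lowest. mt-Co1, a core subunit of complex IV, was at 69922, 72981, 67803 and 77524 CPM at 30 °C and at 48487, 32588, 52184 and 52294 CPM at 22 °C (-0.64, SE 0.129, edgeR adjusted p = 0.00107). mt-Cytb and mt-Nd1 overlapped between the temperatures (-0.02, 0.878, and 0.08, 0.644). These are shares of all counts, so a rise elsewhere lowers them too.

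**Figure D4:**
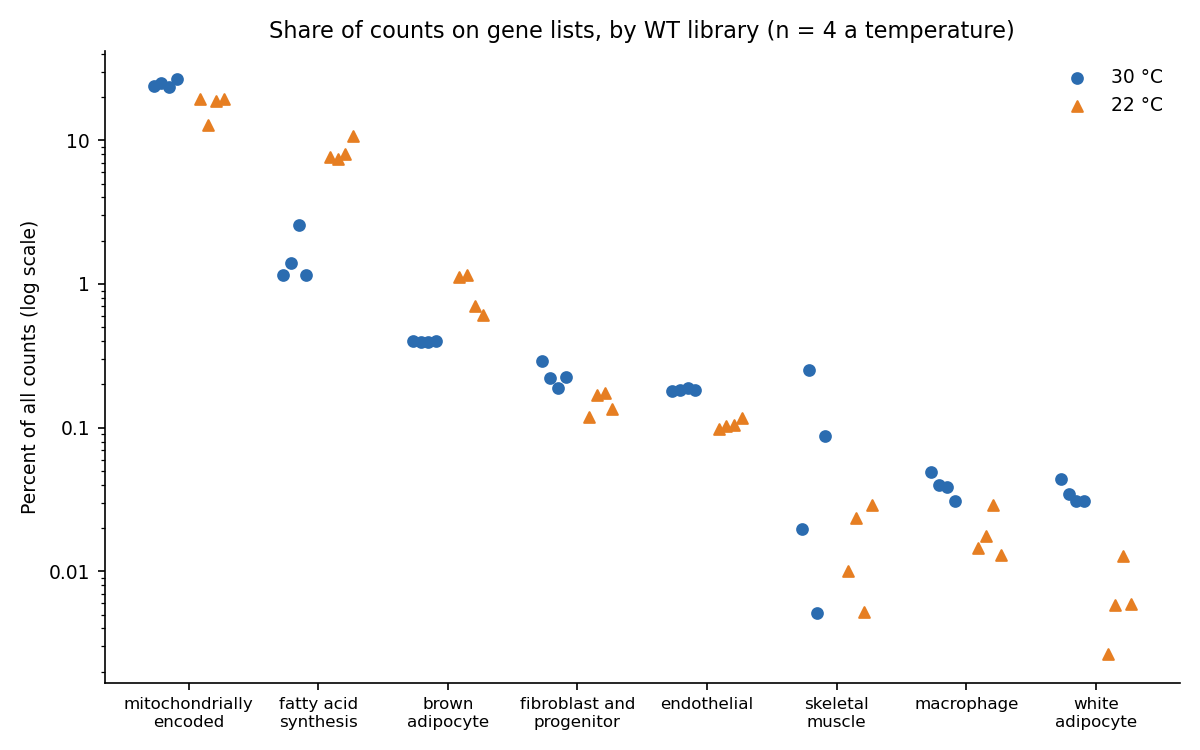
Percent of all counts (y axis, log scale) on 8 gene lists in each WT library, with 30 °C libraries as blue circles and 22 °C libraries as orange triangles. Fatty acid synthesis and brown adipocyte markers are higher in every 22 °C library, the mitochondrially encoded, macrophage, endothelial, fibroblast and white adipocyte lists are lower in every 22 °C library, and skeletal muscle markers overlap. The brown adipocyte list holds Ucp1. The white adipocyte list holds Nnat, and of its 6 tested members 2 were called lower and 4 were not called.

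Lists of mitochondrial biogenesis differed in their share of higher genes. Of the mitochondrial ribosomal proteins 70 of 75 tested were higher and none lower (median 0.67), against 9 of 82 cytosolic ribosomal proteins, whose median of 0.05 became -0.05 with upper-quartile factors or with limma-voom and -0.09 without 22 °C replicate 2. Mrpl50, which had the smallest p of the list, was at 55.7, 52.6, 59.2 and 50.5 CPM and 155, 149, 120.0 and 140.2 CPM (1.37, SE 0.0870, edgeR adjusted p = 2.00e-08). Copies of cytosolic ribosomal protein genes can split their reads, and 5 rather than 9 were higher without 30 °C replicate 2. Assembly factors of the respiratory complexes were higher in 36 of 41, protein import in 17 of 21, and mitochondrial chaperones and proteases in 17 of 19, with none lower in any of the 3 lists. Grpel1, a partner of the matrix chaperone, rose by 1.22, Cox19, a copper chaperone of complex IV, by 1.36, and Chchd3, which shapes the cristae, by 1.01. In mitochondrial DNA expression and maintenance 16 of 29 were higher and none lower (median 0.37). There 1 was lower without 22 °C replicate 4 or knockout 22 °C replicate 1 and 2 without 22 °C replicate 3 or with upper-quartile factors. In fission, fusion and mitophagy 13 of 19 were higher and none lower. Polg, the mitochondrial DNA polymerase, did not pass (-0.09, edgeR adjusted p = 0.386).

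Most genes of the cofactor pathways rose, with exceptions. In coenzyme Q synthesis 11 of 13 tested genes were higher, and the 1 lower gene was also the most abundant: Coq8a, an atypical kinase of the pathway, was at 3486, 3650.4, 3246 and 3386 CPM at 30 °C and at 2107, 2565, 2410.2 and 2191 CPM at 22 °C (log2 fold change -0.57, SE 0.0835, edgeR adjusted p = 6.51e-05). The 4 libraries of each temperature were close together and did not overlap. The summed share of the coenzyme Q list went the way of Coq8a, from 0.468% to 0.517% of counts at 30 °C to 0.317% to 0.408% at 22 °C. In heme, iron-sulfur and iron handling 17 of 27 were higher and 3 lower. Alas1, the first enzyme of heme synthesis, did not pass (-0.03, edgeR adjusted p = 0.924), and Tfrc, the transferrin receptor, named outside the rule, fell from 137 to 215 CPM to 32.6 to 96.5 CPM (-1.61).

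Of the mitochondrial carriers of the SLC25 family 17 of 40 tested were higher and 6 lower. Slc25a1, which exports citrate for fatty acid synthesis, was at 139, 140.3, 166 and 139.9 CPM and 1235, 1339, 1008 and 1003 CPM (2.97, SE 0.133, edgeR adjusted p = 1.25e-09). The relatives of Ucp1 diverged. Ucp3 rose from 67.5 to 107 CPM to 141 to 209.6 CPM (1.10, SE 0.282), and Ucp2, which is expressed in many cell types including immune cells, fell from 113, 109, 106 and 106 CPM to 48.4, 46.4, 53.2 and 49.9 CPM (-1.13, SE 0.0873, edgeR adjusted p = 1.55e-07). The part that the cells in the tissue play in the fall of Ucp2 was not tested, and macrophage markers, given below, fell as well.

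Heat can also come from cycles that spend ATP. In creatine cycling none of 7 tested genes was higher and 2 were lower. Ckb, the creatine kinase of the cycle in brown adipocytes, fell from 162, 155, 119 and 158 CPM to 34.3, 41.1, 20.7 and 20.7 CPM (log2 fold change -2.35, SE 0.217, edgeR adjusted p = 1.59e-06), and the creatine transporter gene Slc6a8 fell too (-0.84). Both were lower in every 22 °C library than in every 30 °C library. Alpl, the phosphatase proposed to hydrolyse phosphocreatine, did not pass (0.22, 0.103). In calcium cycling 5 of 16 were higher and 4 lower. Letm1, a cation exchanger of the inner mitochondrial membrane, rose from 146 to 155 CPM to 387 to 627 CPM (1.79), Slc8b1, the mitochondrial sodium-calcium exchanger, fell (-0.82), and the pump gene Atp2a2 did not pass (0.17, 0.271). The higher calls in this list numbered 3 without 22 °C replicate 1 or 30 °C replicate 1 or 3, and 2 without 30 °C replicate 4.

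Proteasome genes were higher. Of 37 tested proteasome subunits 33 were higher and none lower, with a median of 0.57, and without 22 °C replicate 2 there were 3 lower. Psmd14, the deubiquitinase of the proteasome lid, was at 45.8, 45.3, 48.9 and 44.1 CPM at 30 °C and at 79.7, 98.4, 78.1 and 78.7 CPM at 22 °C (log2 fold change 0.86, SE 0.0794, edgeR adjusted p = 8.88e-07), and Psma1, of the core, rose by 0.79. The interferon-inducible subunits Psmb8 (-0.52, 0.139) and Psmb10 (-0.38, 0.121) did not pass. Without 22 °C replicate 2 both did, at -0.75 (edgeR adjusted p = 0.0421) and -0.64 (0.00347). Nfe2l1, the factor that drives proteasome genes in cold brown fat, did not pass (531 to 593 and 562 to 692 CPM, 0.12, edgeR adjusted p = 0.219). Among heat shock genes Hspb8, a small heat shock protein, rose from 16.8 to 23.9 CPM to 71.3 to 92.2 CPM (2.05), and Hspa8 did not pass (-0.17, 0.567).

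In autophagy and lysosome genes 14 of 31 tested were higher and 2 lower. Ctsd, a lysosomal protease, was at 924, 969, 1009.8 and 909.8 CPM at 30 °C and at 1820.0, 2176, 1618 and 1468 CPM at 22 °C (log2 fold change 0.89, SE 0.0998, edgeR adjusted p = 5.43e-06), and Atg7, of autophagosome formation, rose by 0.77. The promoter of Ctsd (chr7:142387828-142387977, minus strand, GRCm38.p6, the 150 bases before the RefSeq start) is shown for its E-box, CACGTG in capitals, from 98 to 93 bases before the start.
Ctsd: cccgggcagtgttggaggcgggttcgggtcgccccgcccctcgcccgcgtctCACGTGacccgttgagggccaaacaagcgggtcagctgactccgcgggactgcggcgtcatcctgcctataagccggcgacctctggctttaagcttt
An E-box was in 7 of the 11 promoters (63.6%) of the autophagy and lysosome genes called higher, in 12 of 27 (44.4%) of the whole list, in 9.70% of those of tested genes, in 10.6% of those of all genes called higher and in 7.15% of all promoters.

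Redox and NAD genes moved in both directions. Of 34 tested glutathione and antioxidant genes 16 were higher and 3 lower, and 6 were lower without 22 °C replicate 2. Sod2, the mitochondrial superoxide dismutase, rose by 0.76 and the glutathione transferase Gsta4 by 1.22, whereas its relative Gstt1 fell from 33.9 to 39.2 CPM to 15.6 to 19.96 CPM (-1.01). Gpx3, the secreted glutathione peroxidase, was the most abundant nuclear transcript per length at 30 °C, and fell from 6129.6, 4311, 3729 and 4563 CPM to 2184, 2908, 3204 and 2643 CPM (-0.78, SE 0.160, edgeR adjusted p = 0.00123). In the NAD list 8 of 20 were higher and 1 lower. Sirt5, a mitochondrial deacylase, rose by 1.09, and Cd38, an NAD hydrolase found on immune cells, fell (-1.24).

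In glutamine, glutamate and aspartate metabolism 5 of 17 tested genes were higher (29.4%) and 4 lower (23.5%), against 20.4% and 17.8% of all genes. In the list of ATF4, serine and one-carbon genes 6 of 23 were higher (26.1%) and 4 lower (17.4%). In the first list 3 were higher with upper-quartile factors, and 2 were lower without 22 °C replicate 1 or 4 or 30 °C replicate 4. Besides Aspg, Glul, glutamine synthetase, rose from 792 to 1127 CPM to 1214 to 1986 CPM (0.95). In serine synthesis the first and last enzymes went apart: Phgdh fell from 13.6, 13.9, 12.2 and 13.4 CPM to 1.33, 4.48, 3.50 and 2.38 CPM (log2 fold change -2.20, SE 0.312, edgeR adjusted p = 6.02e-05) and Psph rose from 15.3, 14.9, 17.1 and 16.9 CPM to 41.2, 48.5, 43.8 and 32.1 CPM (1.37, SE 0.131). Neither overlapped. Atf5, a stress-response factor, rose by 1.39, and Atf4 did not pass (0.11, 0.693).

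Among 37 tested adipokines and secreted factors 9 were higher and 6 lower. Rbp4, the retinol carrier, rose from 22.7, 27.7, 29.1 and 23.7 CPM to 171, 189, 104 and 100.4 CPM (2.45, SE 0.258, edgeR adjusted p = 6.66e-06), and Clstn3 by 1.14. Lep, leptin, was at 88.8 to 107 CPM at 30 °C and at 14.97, 25.5, 98.6 and 41.9 CPM at 22 °C. Replicate 3 at 22 °C lay inside the 30 °C range and the other 3 below it, and the difference did not pass (-1.12, SE 0.586, 0.152). Without replicate 3 it did, at -1.84 (edgeR adjusted p = 0.0213). Adipoq, adiponectin, did not pass (-0.02, 0.890). Igfbp3, a binding protein of insulin-like growth factors, fell from 43.6 to 50.03 CPM to 17.02 to 22.1 CPM (-1.21).

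Imprinted genes of growth control were lower in 7 of 17 tested and higher in 2, with a median of -0.75. Ndn, necdin, fell from 110.5, 144, 120.3 and 121 CPM to 40.5, 51.00, 38.8 and 47.9 CPM (-1.48, SE 0.114, edgeR adjusted p = 1.56e-07). The long noncoding RNA Meg3 fell (-1.09), from 40.03 to 49.5 CPM to 18.7 to 24.1 CPM, and Mest, which marks growing fat, fell too (-1.79). None of the 3 overlapped between the temperatures. The higher members, named outside the rule, were Peg3 (0.87) and Gnas (0.39), and with upper-quartile factors 1 was higher.

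Genes of dividing cells were lower at 22 °C. Of 41 tested cell cycle and replication genes 25 were lower and 1 higher, with a median of -1.13, and none was higher without 30 °C replicate 1. Top2a, the topoisomerase of dividing cells, was at 4.75, 6.70, 5.76 and 5.14 CPM at 30 °C and at 1.48, 1.75, 1.50 and 1.05 CPM at 22 °C (log2 fold change -1.95, SE 0.213, edgeR adjusted p = 4.33e-06), and Kif11, a mitotic kinesin, at 2.56, 2.75, 2.13 and 1.87 CPM and 0.492, 0.531, 0.625 and 0.581 CPM (-2.05, SE 0.215). Levels were low in all libraries, and the groups were fully apart. Ccnd1, cyclin D1, fell (-1.49), while Mcm7, of the replication helicase, did not pass (-0.09, 0.594). The promoters of Kif11 (chr19:37376232-37376381, plus strand) and Top2a (chr11:99024190-99024339, minus strand, both GRCm38.p6, 150 bases before the RefSeq start) are shown because they hold, in capitals, the CCAAT box (ATTGG or its complement) and the cell cycle homology region (TTTGAA or its complement).
Kif11: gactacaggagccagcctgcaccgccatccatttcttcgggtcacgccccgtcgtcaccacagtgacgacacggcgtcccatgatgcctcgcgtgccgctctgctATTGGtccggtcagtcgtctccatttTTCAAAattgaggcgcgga
Top2a: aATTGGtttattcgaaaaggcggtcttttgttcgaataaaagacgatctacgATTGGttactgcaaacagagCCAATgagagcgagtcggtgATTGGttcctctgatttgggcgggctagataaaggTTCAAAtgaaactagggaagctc
The homology region lies 19 to 14 bases before the start in Kif11 and 23 to 18 in Top2a. It was in 13 of the 21 promoters (61.9%) of the cell cycle genes called lower, in 16 of 34 (47.1%) of the whole list, in 11.95% of those of tested genes and in 17.9% of all promoters, and ATTGG was in 18 of the 21 (85.7%), in 25 of the 34 (73.5%), in 37.1% of those of tested genes and in 37.4% of all.

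Interferon-stimulated genes were lower in 22 of 33 tested and higher in 1, with a median of -0.73. Ddx58, the RNA sensor RIG-I, was at 40.1, 37.4, 41.3 and 39.5 CPM at 30 °C and at 17.7, 21.6, 20.8 and 26.3 CPM at 22 °C (log2 fold change -0.87, SE 0.104, edgeR adjusted p = 9.78e-06), and Parp14 fell (-0.94). The 1 that rose was Ifi27, from 963, 1028, 908 and 977 CPM to 1904, 2345, 1738 and 1389.7 CPM (0.93, SE 0.125), which was also the highest of the named members in level. Isg15, a ubiquitin-like protein named outside the rule, had a log2 fold change of -0.91, and its promoter (chr4:156200819-156200968, minus strand, GRCm38.p6, 150 bases before the RefSeq start) is shown for 3 overlapping matches to the interferon response element, in capitals, between 78 and 57 bases before the start.
Isg15: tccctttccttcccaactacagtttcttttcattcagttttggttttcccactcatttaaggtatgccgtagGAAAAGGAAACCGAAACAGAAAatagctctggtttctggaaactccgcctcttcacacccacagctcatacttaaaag
That motif was in 10 of the 18 promoters (55.6%) of the interferon-stimulated genes called lower, in 13 of 25 (52.0%) of the whole list, in 3.10% of those of tested genes and in 3.44% of all promoters.

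Markers of macrophages, endothelium and fibroblasts took a smaller share of counts at 22 °C. Here and for mural cells below these are shares of all counts, so a rise elsewhere lowers them too. The calls rest on scaled levels. Median log2 fold changes there were -0.83 for the macrophage, -0.49 for the endothelial and -0.38 for the fibroblast and progenitor list. Of 18 tested macrophage markers 12 were lower and none higher, and the summed share ran from 0.0307% to 0.0494% at 30 °C and from 0.0129% to 0.0289% at 22 °C. Trem2, a receptor of lipid-laden macrophages, fell from 2.79, 2.41, 2.76 and 2.30 CPM to 0.542, 0.759, 1.19 and 0.349 CPM (log2 fold change -1.86, SE 0.361, edgeR adjusted p = 7.65e-04). Replicate 3 was the highest at 22 °C in Trem2, and also in Ctss, a macrophage protease, at 7.63, 7.97, 23.1 and 6.80 CPM against 25.1 to 39.6 CPM at 30 °C (-1.53, and -2.14 without that library). Endothelial markers were lower in 8 of 12, with shares of 0.181% to 0.189% and 0.0972% to 0.117%, and fibroblast and progenitor markers in 5 of 10, with shares of 0.188% to 0.293% and 0.119% to 0.173%. Tie1 and Dcn, examples of both, fell (-0.75 and -0.72). For these 3 lists the libraries of the temperatures did not overlap (exact permutation tests, two-sided, each p = 0.0286, adjusted p = 0.0457). With 1 library left out the exact permutation p was 0.0286 for endothelium. It was 0.0571 for macrophages, except 0.0286 without 22 °C replicate 3, and 0.0571 for fibroblasts without any of the 22 °C libraries. MHC class II genes were lower in 5 of 7, and in 3 without 22 °C replicate 1 or 30 °C replicate 2 and 2 without 30 °C replicate 1. Skeletal muscle, mast cell, Schwann cell and erythroid markers had no call in either direction.

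Not all non-adipocyte genes fell, even in a list whose summed share did. Mural cell markers took 0.0916% to 0.106% of counts at 30 °C and 0.0561% to 0.0693% at 22 °C (exact permutation test, two-sided, p = 0.0286, adjusted p = 0.0457). Among mural cell markers 3 of 8 were lower and 1 higher: Notch3, a receptor of pericytes and smooth muscle, fell from 86.99 to 100.7 CPM to 31.4 to 52.8 CPM (-1.16), and Cspg4, the pericyte proteoglycan NG2, rose from 56.7, 59.7, 80.2 and 65.97 CPM to 81.4, 100.9, 126 and 139.9 CPM (0.77, SE 0.139, edgeR adjusted p = 3.95e-04). In the matrix list 16 of 36 were lower and 3 higher. Hspg2, perlecan of basement membranes, fell from 581, 655, 701 and 637 CPM to 318, 281, 329.5 and 459 CPM (-0.89), Bgn, biglycan, fell too (-0.92), and Mmp19 rose by 0.90. Collagens were lower in 12 of 30 and higher in 2, and lower in 7 without 22 °C replicate 1 or 30 °C replicate 1. The abundant fibrillar collagens Col3a1 (-0.26, 0.199) and Col1a2 (-0.16, 0.373) did not pass.

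The spread among libraries was largest in a few genes. Mfsd2a, a lysolipid transporter, was at 0.594, 0.344, 0.749 and 0.302 CPM at 30 °C and at 126, 24.1, 9.00 and 8.31 CPM at 22 °C, so 22 °C replicate 1 held most of the signal, and the log2 fold change of 6.38 (SE 1.06, edgeR adjusted p = 5.04e-04) was 4.79 without it. Libraries also differed in clock genes, of which 2 of 19 tested were lower and none higher. Without 22 °C replicate 2 none was lower, and without 30 °C replicate 2, 3 or 4 there was 1. With upper-quartile factors 4 were. The log2 level of Dbp minus that of Arntl, which moves with the time of day, was -0.57, 0.40, -0.42 and 0.04 at 30 °C and 0.91, 1.79, 0.79 and -0.81 at 22 °C. With that difference as a covariate 4476 genes were called, and the part of the time of day in the results was not tested.

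The same change of temperature in the Akt2 knockout gives a reference for which parts of the WT response differ with genotype. Akt2 itself was at 69.4 ± 10.7 CPM at 30 °C and 82.2 ± 6.03 CPM at 22 °C in the knockout, against 204 ± 12.9 CPM and 232 ± 19.8 CPM in WT (means ± SD, n = 4). The WT response and the knockout response differed in 433 genes (3.07% of those tested), more positive in WT in 329 (2.33%) and more negative in 104 (0.737%). This count was between 156 and 248 when 1 library was left out in 10 of 16 cases (knockout 22 °C replicates 2, 3 and 4, knockout 30 °C replicates 1, 3 and 4, and each WT 30 °C library), and 1137 without WT 22 °C replicate 4. It was 30 with the clock covariate. By list, the difference was called, and more positive in WT, for 9 of 15 genes of fatty acid synthesis, 11 of 27 of cholesterol synthesis, 8 of 26 of glycolysis and 7 of 20 of the TCA cycle. It was also called for 1 of 25 thermogenic genes and for none of the 41 cell cycle, 33 interferon or 18 macrophage genes tested. In the lists of fatty acid synthesis, cholesterol synthesis, glycolysis and the TCA cycle the share was above the 3.07% of all genes. Other lists shared this, with 4 of 8 tested genes of the pentose phosphate pathway and 7 of 17 of pyruvate entry. Whether such counts exceed that share was not tested.

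**Figure D5:**
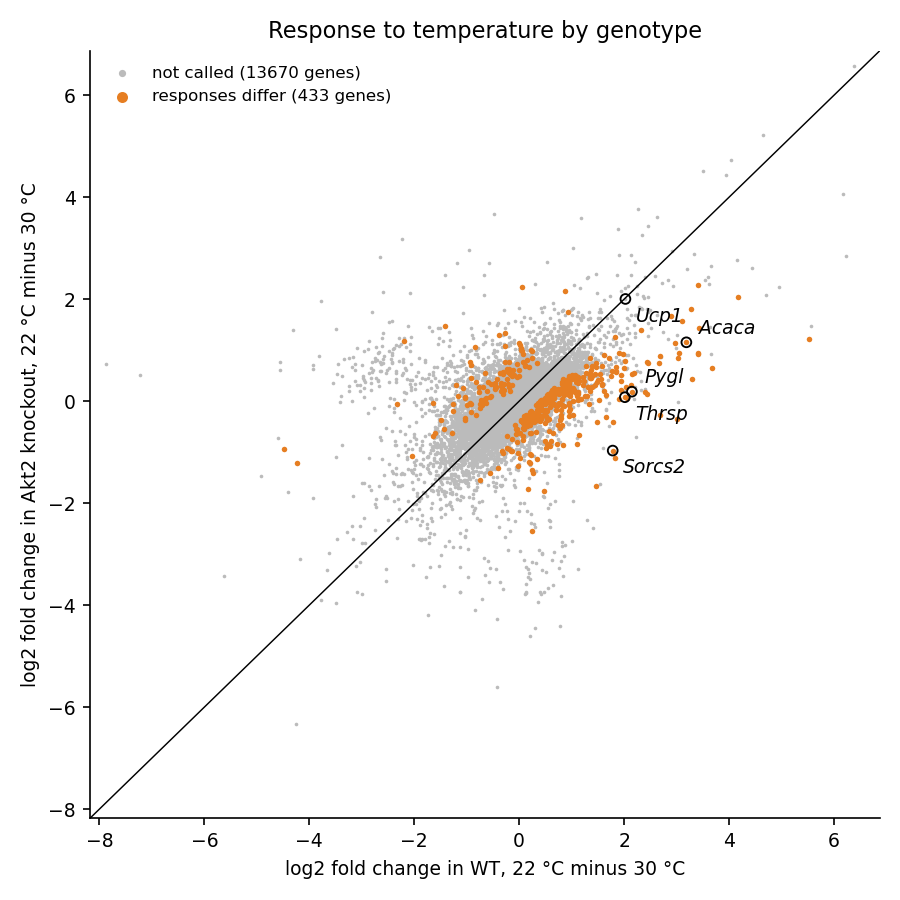
Log2 fold change at 22 °C relative to 30 °C in WT (x axis) and in the Akt2 knockout (y axis) for the 14103 genes tested, with the 433 genes whose responses differed in orange and the rest in grey, and a line where both are equal. Acaca (3.19 in WT and 1.15 in the knockout) and Pygl (2.15 and 0.19) lie well below the line, and Ucp1 (2.03 and 2.00) lies on it.

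Of 74 genes of the naming rule whose responses differed, 8 did so in each of the alternative settings tried. Fasn lost the call in 19 settings and Acly in 2. In the knockout, Acaca was at 119.7 ± 18.95 CPM in the 30 °C libraries and at 266 ± 8.01 CPM in those at 22 °C (means ± SD, n = 4), a log2 change of 1.15 against 3.19 in WT, and the difference was 2.03 (SE 0.252, edgeR adjusted p = 4.29e-04). Pygl was at 388 ± 43.2 CPM and 442 ± 54.3 CPM in the knockout (0.19 against 2.15 in WT, difference 1.96, SE 0.170), and Thrsp at 1400.2 ± 246 CPM and 1478 ± 143 CPM (0.08 against 2.01, difference 1.94). The other 5 were Acss2 (difference 2.18), Slc25a1 (1.83), Nsdhl (1.63), Lss (1.23) and Sorcs2 (2.75), a sorting receptor that rose in WT and fell in the knockout (1.78 and -0.97). For Ucp1 the log2 change was 2.03 in WT and 2.00 in the knockout, with a difference of 0.02 (SE 0.352, edgeR adjusted p = 0.980).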

How the data were processed

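The deposited table holds whole-number counts per gene for 16 libraries of total RNA from interscapular brown fat, made by the authors. The submitters' processing notes name FastQC 0.10.1, STAR 2.4.2a, edgeR 3.14.0 and the builds GRCm38 and mm10. Which program counted the reads, and on which strand, is not given in the sources used here, so overlapping and antisense genes cannot be told apart.

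Groups come from the labels. Counts were filtered with filterByExpr (minimum count 10), scaled with TMM factors and fitted in edgeR 4.0.16 (R 4.3.3) by quasi-likelihood with robust dispersion, with all 16 libraries in 1 fit that shares the spread. The contrasts were 22 °C minus 30 °C in WT, and the WT response minus the knockout response. The fit was tested on simulated data. DESeq2 1.42.0, limma 3.58.1 (voom), other factors, filters, covariates, a replicate block and leaving out libraries were the alternatives. TPM used merged exon lengths of the GENCODE M21 annotation (GRCm38). Shares of counts were compared by exact permutation, and the p-values were adjusted with scipy 1.17.1.

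The genes and lists were chosen with earlier results of these data known. Genes were named by rule: 20 fixed genes, up to 4 called and 2 uncalled members of each list, the 10 largest changes each way without overlap (mean log2 CPM of at least 2 and at least 1 CPM in the lower group), the 5 most abundant called genes each way, the 3 with the largest spread in each group and the 6 largest differences between genotypes each way. The rule gave 411 genes. The text names 166 genes, nearly all from these, a choice made with their values known. Genes on chromosome 18 are not named. The promoters shown were picked by hand after the motif shares were seen, and not every pair of motif and list is given. The sterol response element (TCACCCCAC), for example, was in 0 of 16 promoters of the fatty acid synthesis list. It was in 1 of 25 of the cholesterol synthesis list, and in 0.549% of those of tested genes.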

Additional observations from a re-analysis of the deposited data

Results flagged for a closer look

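In 16 of 364 groups of 4 libraries, 1 library stood far from the other 3, a distance that chance gives in about 1 in 20 groups. At 30 °C, replicate 3 was the one apart for Scd1 (15178 CPM), Pgd (194 CPM), Slc25a1 (166 CPM) and Ckb (119 CPM), replicate 2 for Grpel1 (133 CPM) and Slc6a8 (86.6 CPM), and replicate 4 for Pdk4 (2792 CPM). At 22 °C, replicate 2 was apart for Cox6a1 (2759.8 CPM) and Psmd14 (98.4 CPM), replicate 4 for Glul (1214 CPM) and Scd2 (998.5 CPM), replicate 1 for Mfsd2a (126 CPM) and replicate 3 for Ctss (23.1 CPM). Replicate 2 at 22 °C also stood apart in the share of counts on mitochondrially encoded genes (12.8%) and on erythroid markers (0.0436%), and replicate 1 at 30 °C in the share on adipocyte markers (1.78%).

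The response to temperature differed between WT and the Akt2 knockout in 433 genes by the interaction term. Among the genes named, Sorcs2 (2.75), Acss2 (2.18), Acaca (2.03), Pygl (1.96), Thrsp (1.94), Slc25a1 (1.83), Nsdhl (1.63) and Lss (1.23) had a more positive log2 response in WT, by the amounts given, and passed in each setting tried.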

How the results depend on the processing

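The number of genes called between the temperatures in WT (5385) stayed within 1.5 times in each of the 28 alternative settings, from 4476 with the clock covariate to 5903 without knockout 22 °C replicate 1. No call of a named gene changed direction, and 132 of the 136 called genes named were called in every setting. The 4 exceptions were Srebf1, Gnas, Lhx8 and Ppara. The count of differences between the WT and knockout responses moved further. From 433 it went to 1060 with DESeq2, 1033 with limma-voom, 255 without a filter on low counts, 30 with the clock covariate, 105 without libraries whose skeletal muscle markers held over 0.1% of counts, and 156 to 1137 with 1 library left out. The cause was not tested. Gnas was at 0.29 (edgeR adjusted p = 0.0637) with upper-quartile factors. Elovl3 was at 5.52 and Mfsd2a at 5.15 with limma-voom. Pparg and Kcnk3 passed with DESeq2 (adjusted p = 0.0353 and 0.0483).

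The labels do not say that replicate numbers mark a shared source, so the samples were not treated as paired. The deviations of same-numbered WT libraries correlated at 0.0447, 0.135, 0.409 and 0.316, so 1 of 4 pairs was under 0.1, and 5 of 8 libraries correlated best with their own number, a hint from the data and not from the design. With the replicate block 5148 genes were called in WT and 198 in the difference between genotypes, Pparg passed (0.34, edgeR adjusted p = 0.0463), as did Arntl (-0.41, 0.0359), and 4 clock genes were lower in place of 2.

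With 1 WT library left out, the differences in the share of counts on 5 lists kept their direction but passed an unadjusted exact permutation p of 0.05 in part of the cases. In percentage points they ran from -0.0247 to -0.0180 for macrophage, -0.00404 to -0.00178 for lymphocyte and plasma cell, -0.0305 to -0.0224 for MHC class II, -0.0975 to -0.0624 for fibroblast and 0.412 to 0.593 for brown adipocyte markers. Fewer samples were compared there. Genes with low counts, such as those of the cell cycle, are measured with the least depth.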
